A study of Mus musculus with 6 samples.

Results

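The 10 genes described here encode enzymes of bile acid synthesis and conjugation in the liver, and the receptor pair through which an intestinal hormone restrains that synthesis. They were chosen by name, with earlier results of these data known: Cyp7a1, Cyp8b1, Cyp27a1, Cyp7b1, Cyp39a1, Hsd3b7, Akr1d1, Baat, Fgfr4 and Klb. All 10 were found among the 24501 genes of the deposited table, and all 10 were among the 14385 genes with a mean of at least 10 normalised reads over the 6 libraries, the genes that were tested. Liver RNA came from 6 male C57BL/6J mice, all with floxed alleles of the transcription factor gene Gata4, in 2 groups of 3. The group labelled Gata4LKO was given AAV8-Tbg-Cre, a virus of serotype 8 in which the hepatocyte promoter Tbg drives Cre recombinase. The Control group was given an AAV8 labelled empty. Both groups were injected at 8 weeks of age, ate Western diet for 3 weeks, and were 11 weeks old and fasted for 6 hours at collection, although another label sets collection 7 days after injection. The series description speaks of both fasted and refed mice, while the labels of all 6 libraries give fasting, so the feeding state is taken from those labels and was not checked otherwise. Liver cells in which Tbg is inactive were not targeted, and the Control virus brought no Cre, so effects of Cre itself and of the deletion cannot be told apart.

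The liver makes bile acids from cholesterol. In the classic route CYP7A1 takes the first and rate-limiting step, and in the alternative route CYP27A1 oxidises the side chain first and CYP7B1 then acts on the oxysterol. HSD3B7 and AKR1D1 rebuild the steroid rings in both routes, CYP8B1 directs intermediates to cholic acid, and BAAT joins the finished acids to taurine, the usual partner in mice, or to glycine. Bile acids that return to the ileum release the hormone FGF15, which acts on liver through the receptor FGFR4 and its co-receptor KLB and lowers Cyp7a1 transcription.

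Upstream stretches of 3 members are shown because Cyp8b1, Hsd3b7 and Akr1d1 had similar positive differences, none past the main test, and act in successive parts of the pathway. The RefSeq promoter table (GRCm38.p6, the assembly of mm10) had an entry for 6 of the 10 genes, and each stretch below is the 250 bases before the annotated start, read 5′ to 3′ on the gene's strand. Capitals mark matches to the words searched. The stretches are chr9:121916306-121916555 on the minus strand for Cyp8b1, chr6:37529923-37530172 on the plus strand for Akr1d1 and chr7:127800359-127800608 on the plus strand for Hsd3b7.
Cyp8b1: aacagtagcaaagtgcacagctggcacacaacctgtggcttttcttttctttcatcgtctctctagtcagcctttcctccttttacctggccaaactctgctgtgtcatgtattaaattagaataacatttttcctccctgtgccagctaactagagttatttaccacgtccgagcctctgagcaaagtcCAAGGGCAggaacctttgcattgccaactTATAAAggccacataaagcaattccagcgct
Akr1d1: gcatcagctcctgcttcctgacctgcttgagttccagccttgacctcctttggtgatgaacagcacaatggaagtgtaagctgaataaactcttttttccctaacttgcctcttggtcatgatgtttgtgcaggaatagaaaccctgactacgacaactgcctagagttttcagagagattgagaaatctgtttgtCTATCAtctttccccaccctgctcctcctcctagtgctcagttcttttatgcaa
Hsd3b7: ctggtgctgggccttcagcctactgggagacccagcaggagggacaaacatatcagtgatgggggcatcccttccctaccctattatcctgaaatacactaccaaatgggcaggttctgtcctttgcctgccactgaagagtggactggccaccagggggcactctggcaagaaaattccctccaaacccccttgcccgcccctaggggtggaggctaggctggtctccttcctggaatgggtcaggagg

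A GATA word, meaning AGATAA, its variant AGATAG, the word TGATAA or its variant TGATAG on either strand, was present in 2 of the 6 stretches, those of Akr1d1 and Klb, against 26.5% of all 32851 promoters in the same window. The Akr1d1 match lay on the opposite strand with its first printed letter 54 bases before the start, and the Klb match lay 29 bases before the RefSeq start. The Klb stretch, chr5:65348161-65348410, runs past the GENCODE start at 65348314, so its match lies inside the GENCODE gene. The Fgfr4 and Hsd3b7 stretches also run past their GENCODE starts. For Cyp27a1, the bases after the stretch were not found near the start of its GENCODE transcripts. Cyp8b1 held CAAGGGCA 60 bases before its start, which matches CAAGGNCA, a loose form of the word bound by NR5A2 that was chosen after the stretch had been read and occurs in 5.53% of promoters. The stricter words CAAGGTCA and CAAGGCCA were in 0 of the 6 stretches and in 3.28% of promoters. Cyp8b1 also held TATAAA 31 bases before its start, a word found in 12.4% of promoters. The D-box words TTATGTAA and TTACGTAA, bound by factors of the DBP family, were in 0 of the 6 stretches and in 0.931% of promoters. Hsd3b7 matched none of these words in this window. No match overlapped another.

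The libraries held 33274223 to 37390345 reads. Counts of Gata4 were not lower in the libraries labelled Gata4LKO: they were 867, 848 and 895 normalised reads there, against 704, 637 and 546 in Control. Its log2 fold change was 0.47 (SE 0.10, limma adjusted p = 0.0641), and Gata4 was called higher in 2 of the 17 alternatives, by DESeq2 (adjusted p = 0.00836) and with equal library sums (0.52, limma adjusted p = 0.0493). Counts over the whole gene do not separate floxed from retained exons, so the directions below rest on the labels. Over all 14385 genes, 162 were higher, which is 1.13%, and 134 were lower, which is 0.932%, so 2.06% were called in either direction (limma, Benjamini-Hochberg adjusted p under 0.05). An unadjusted limma p under 0.05 was reached by 3227 genes, or 22.4%, and DESeq2 on recovered reads called 9.07%, which are the shares to read beside the counts given below. With libraries scaled to equal sums the split was 328 higher and 130 lower. The median log2 fold change of all tested genes was -0.01. Hepatocyte transcripts were abundant in every library, but levels of cell type markers differed between the groups. The 7 hepatocyte markers summed to between 1989737 and 2364591 normalised reads in Gata4LKO and between 2891496 and 3834337 in Control, and Serpina1c among them fell. The 7 endothelial markers summed to 6299 to 7704 in Gata4LKO and 3884 to 4718 in Control, with 4 of 7 higher by the test. The 7 Kupffer cell and macrophage markers summed to 6530 to 14500 in Gata4LKO and 2429 to 5658 in Control, with 0 of 7 past the limma test, 0 by edgeR, 4 by DESeq2 and 7 at an unadjusted limma p under 0.05 (22.4% over all genes). The 7 stellate markers summed to 9365 to 11890 in Gata4LKO and 3448 to 8356 in Control, with 0 of 7 past limma, 0 by edgeR, 2 by DESeq2 and 6 at an unadjusted limma p under 0.05. The sums of the 6 lymphocyte markers, at 104 to 168 in Gata4LKO and 34.6 to 164 in Control, overlapped. So did those of the 7 bile duct markers, at 994 to 1408 in Gata4LKO and 1180 to 1526 in Control. Spp1 made up most of the bile duct sum, with means of 814 in Gata4LKO and 931 in Control. Of 6 bile duct markers tested, 0 passed limma, with 1 positive, 5 negative and a median log2 fold change of -0.53. Krt19 and Tff3 averaged 7.51 and 30.5 in Gata4LKO and 25 and 95.4 in Control. Sox9, the positive marker, averaged 325 in Gata4LKO and 205 in Control. The adipocyte markers were at 238 to 489 in Gata4LKO and 129 to 170 in Control, while the defining Adipoq averaged 1.61 reads in Gata4LKO and 1.03 in Control and was at 0 in 3 of the 6 libraries. Of 15 markers of pericentral hepatocytes, 3 were higher (Tbx3, Slc1a4 and Cldn2) and 0 lower, while 9 had positive and 6 negative log2 fold changes, with a median of 0.19. Among the negative ones, Cyp1a2 averaged 15837 normalised reads in Gata4LKO and 26899 in Control without overlap (limma adjusted p = 0.0721), and DESeq2 called 4 of the 15 higher and 1 lower. Of 14 periportal markers, 2 were lower (Gls2 and Aldh1b1) and 0 higher, with 13 negative and 1 positive and a median of -0.32. The part of cell composition in the results below was not tested, and in whole tissue fewer cells of a type and less RNA per cell cannot be told apart.

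Baat, the conjugating enzyme, was the 1 gene of the 10 that passed the test, and it was lower in the libraries labelled Gata4LKO, with 0.631 times the Control level. None of the other 9 passed, although 6 of the 10, Baat included, had an unadjusted limma p under 0.05, against 22.4% of all tested genes. Cyp7b1, Cyp8b1, Hsd3b7 and Akr1d1 had positive log2 fold changes between 0.44 and 0.99, while Cyp7a1, Cyp27a1 and Klb lay within 0.19 of 0. Calls for 1 of 10 genes compare with the 2.06% called over all genes, and the median log2 fold change of the 10 was -0.04. Groups did not overlap for 4 of the 10, Baat, Fgfr4, Hsd3b7 and Cyp8b1, against 28.3% of all tested genes.

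**Figure D1:**
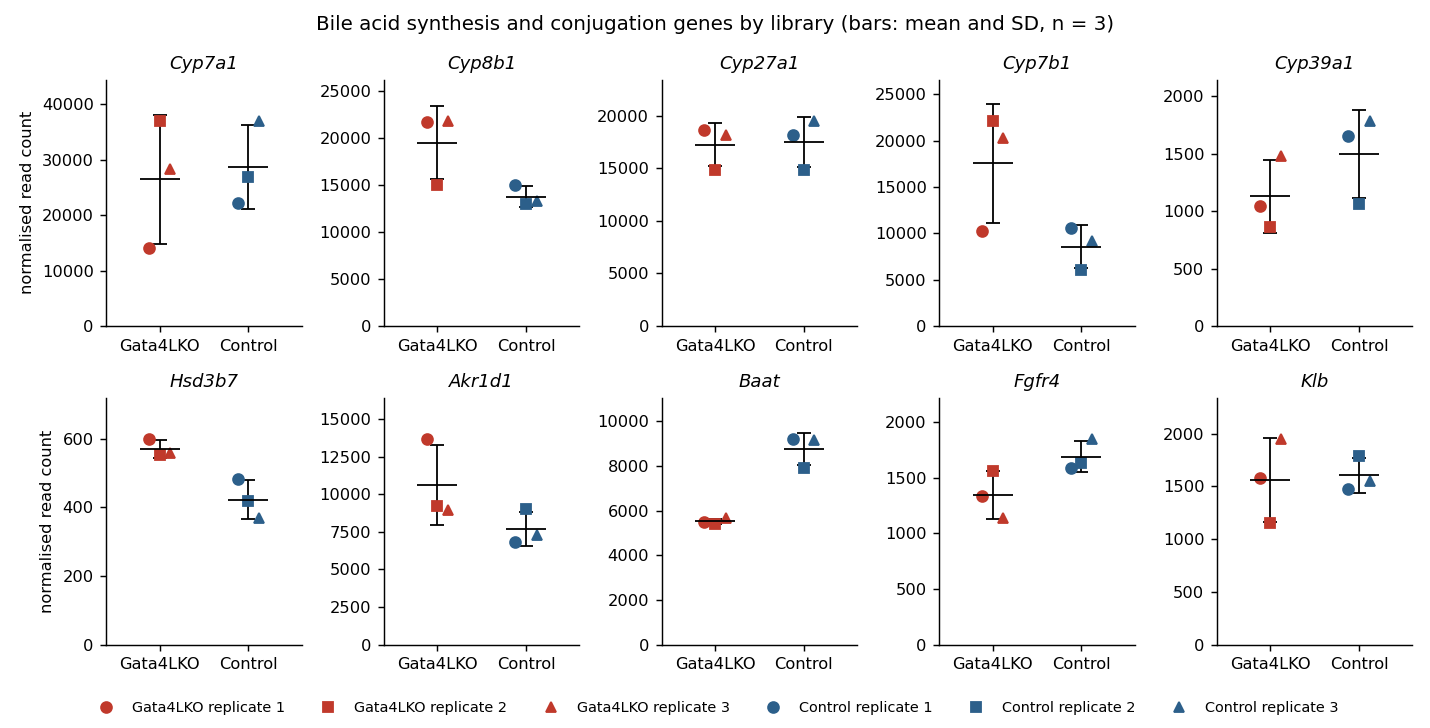
Normalised read counts (vertical axes, starting at 0) of the 10 genes in each library, with Gata4LKO left of Control; points are libraries, and horizontal lines and bars are the mean and SD of 3. Baat has the smallest Gata4LKO spread relative to its mean, at 5411 to 5660, below the Control libraries at 7926 to 9198.

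Baat (ENSMUSG00000039653, chromosome 4, 49489422 to 49506557, minus strand, mm10) had 5478, 5411 and 5660 normalised reads in the Gata4LKO libraries, against 9198, 7926 and 9176 in the Control libraries. Every Gata4LKO library was below every Control library, and the highest Gata4LKO value stood well under the lowest Control value. The means were 5517 ± 129 in Gata4LKO and 8766 ± 728 in Control (SD, n = 3 each). Baat fell by 0.66 on the log2(value + 1) scale, with a standard error of 0.08, a 95% interval of -0.85 to -0.48 and a limma adjusted p of 0.0146. It ranked 41 of all tested genes by p. With reads recovered from the values, edgeR's quasi-likelihood adjusted p was 0.0155, in a fit that called 2.06% of genes, and the authors' deposited table gives a log2 fold change of -0.67 with an adjusted p of 6.12e-09. The call was lost without Gata4LKO replicate 3 (-0.68, limma adjusted p = 0.0682) and without Control replicate 3 (-0.63, limma adjusted p = 0.0545). It was also lost without the variance trend (-0.66, limma adjusted p = 0.062) and with a summary of 33 markers of other liver cells as a covariate (-0.51, limma adjusted p = 0.177), over a range of 6.32e-09 to 0.177 in all 17 alternatives. That marker summary stood at 0.47, 0.27 and 0.24 in the Gata4LKO libraries and at -0.40, 0.16 and -0.73 in the Control libraries.

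Transcripts that serve the substrates of conjugation were read beside Baat. Slc27a5, the ligase that activates bile acids with coenzyme A just before BAAT acts, averaged 29108 normalised reads in Gata4LKO and 34111 in Control, with a log2 fold change of -0.23 that missed the threshold (limma adjusted p = 0.308). Of 6 tested genes that make or import taurine, 1 was lower and 0 higher, with a median log2 fold change of -0.15 against -0.01 over all genes. That gene was Slc6a6, the taurine transporter, with 4688, 4931 and 5041 normalised reads in Gata4LKO, against 7056, 8412 and 6953 in Control. Slc6a6 fell by 0.61 (log2, SE 0.09), with a limma adjusted p of 0.0268. That p became 0.0553 to 0.0902 when any of the 3 Gata4LKO libraries or Control replicate 3 was left out. Over all 17 alternatives Slc6a6 was called in 11, with a limma adjusted p of up to 0.104. Slc6a12, which carries betaine and related solutes, had a log2 fold change of -0.30, and Cdo1, the dioxygenase that begins taurine synthesis from cysteine, had -0.22, with limma adjusted p of 0.167 and 0.264. Csad, the decarboxylase of that route, had 7592, 8167 and 6805 normalised reads in Gata4LKO, against 18056, 1660 and 6629 in Control. The Control libraries spanned the Gata4LKO values in both directions, and the sign of the Csad difference depended on the scale, with a log2 fold change of 0.36 although the mean was 7521 in Gata4LKO and 8782 in Control (limma adjusted p = 0.82).

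Among the enzymes that start and split the routes, Cyp7a1 varied widely between mice of the same group and did not pass. Cyp7a1 (ENSMUSG00000028240, chromosome 4, 6265612 to 6275633, minus strand) had 14038, 36978 and 28287 normalised reads in Gata4LKO, against 22108, 26937 and 36974 in Control. The groups spanned each other, and both the lowest and the highest value were Gata4LKO libraries. The means were 26434 ± 11582 in Gata4LKO and 28673 ± 7583 in Control (SD, n = 3 each), so the coefficient of variation was 43.8% in Gata4LKO and 26.4% in Control. The log2 fold change was -0.19 with a 95% interval of -1.01 to 0.62 (limma adjusted p = 0.793). Its sign changed without Gata4LKO replicate 1, where the value was 0.21. That library also had the highest Kupffer cell and macrophage sum, 14500, and the part of this in its Cyp7a1 level was not tested.

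Cyp7b1, the oxysterol hydroxylase of the alternative route, had the largest difference of the 10 genes but did not pass. It lies on chromosome 3, 18071950 to 18243338, minus strand. Its normalised reads were 10257, 22141 and 20252 in Gata4LKO, against 10520, 6062 and 9124 in Control. Gata4LKO replicates 2 and 3 stood above all Control libraries, and Gata4LKO replicate 1 lay just under Control replicate 1. The means were 17550 ± 6386 in Gata4LKO and 8569 ± 2280 in Control (SD, n = 3 each), a log2 fold change of 0.99 with a 95% interval of 0.26 to 1.73 (limma adjusted p = 0.124). The ratio of Cyp7b1 to Cyp7a1 reads within a library, which no scaling factor enters, was 0.731, 0.599 and 0.716 in Gata4LKO, against 0.476, 0.225 and 0.247 in Control. Here the groups did not overlap: the 3 Gata4LKO ratios all exceeded those of Control, and Gata4LKO replicate 1, which was low for both genes, had the highest ratio. The mean log2 ratio was -0.56 ± 0.16 in Gata4LKO and -1.75 ± 0.59 in Control (SD, n = 3 each), a difference of 1.19. An exact permutation test, two-sided, gave p = 0.1, below which a design of 3 against 3 cannot go, and 0.2 after Benjamini-Hochberg adjustment over the 2 ratios examined.

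Cyp8b1, the cholic acid branch enzyme (chromosome 9, 121914356 to 121916305, minus strand) whose upstream stretch is printed above, had 21637, 15020 and 21801 normalised reads in Gata4LKO, against 15019, 12974 and 13230 in Control. The groups met at one point, since Gata4LKO replicate 2 and Control replicate 1 were nearly equal, and the other two Gata4LKO libraries lay far above. The means were 19486 ± 3869 in Gata4LKO and 13741 ± 1114 in Control (SD, n = 3 each), and the 95% interval of the log2 fold change of 0.49 ran from 0.13 to 0.84 (limma adjusted p = 0.122). Without Gata4LKO replicate 2 the value was 0.66 and passed (limma adjusted p = 0.0458). The ratio of Cyp8b1 to Cyp7a1 reads was 1.54, 0.406 and 0.771 in Gata4LKO, against 0.679, 0.482 and 0.358 in Control. These ratios overlapped, with a mean log2 difference of 0.68 and an exact two-sided permutation p of 0.4, also 0.4 when adjusted. The difference was 0.19 without Gata4LKO replicate 1 and 1.16 without Gata4LKO replicate 2.

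Cyp27a1, the mitochondrial side-chain hydroxylase, was the gene of the 10 with the smallest difference. It lies on chromosome 1, 74713574 to 74737892, plus strand, and had 18602, 14859 and 18189 normalised reads in Gata4LKO, against 18153, 14857 and 19511 in Control. Both groups covered the same range, and the log2 fold change was -0.02 with a 95% interval of -0.33 to 0.29 (limma adjusted p = 0.946). Cyp39a1, which acts on the 24-hydroxylated sterol made mainly in brain, lies on chromosome 17, 43667425 to 43751431, plus strand, and had 1044, 865 and 1478 normalised reads in Gata4LKO, against 1653, 1067 and 1788 in Control. The groups overlapped, and the log2 fold change was -0.41 with a 95% interval of -0.98 to 0.15 (limma adjusted p = 0.361).

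Hsd3b7 and Akr1d1, which act on the steroid rings, both had positive values. Hsd3b7 (chromosome 7, 127800604 to 127803802, plus strand) had 598, 551 and 559 normalised reads in Gata4LKO, against 481, 418 and 368 in Control. All Gata4LKO libraries were above all Control libraries, and the log2 fold change was 0.44 (SE 0.11, 95% interval 0.17 to 0.71, limma adjusted p = 0.0858). Its exons overlap those of Gm49388 on the same strand and 9430064I24Rik on the opposite strand, and the counting settings are not known from the sources used, so its value is uncertain. Akr1d1, a ring reductase (chromosome 6, 37530173 to 37568815, plus strand), had 13674, 9223 and 8946 normalised reads in Gata4LKO, against 6810, 9007 and 7267 in Control. Gata4LKO replicate 1 was the highest library, and Gata4LKO replicate 3 lay just under Control replicate 2. The log2 fold change was 0.45 (SE 0.18, 95% interval 0.03 to 0.86, limma adjusted p = 0.197), and 0.09 was its lowest value among the 17 alternatives.

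DESeq2 on the recovered reads called 4 of the 10 genes, in a fit that called 9.07% of all genes. Baat was lower (adjusted p = 6.32e-09), and Cyp7b1 (adjusted p = 0.00334), Cyp8b1 (adjusted p = 0.0217) and Hsd3b7 (adjusted p = 0.0354) were higher. The authors' deposited table, in which 9.41% of genes with an adjusted p are under 0.05, gives log2 fold changes of 1.03, 0.50 and 0.43 for Cyp7b1, Cyp8b1 and Hsd3b7, with adjusted p of 0.00323, 0.0211 and 0.0344. The submitters' notes name DESeq2 too, and the reads used here were recovered from their values. The deposited figures are therefore not independent of the DESeq2 fit. The other tools, limma and edgeR, called Baat alone.

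**Figure D2:**
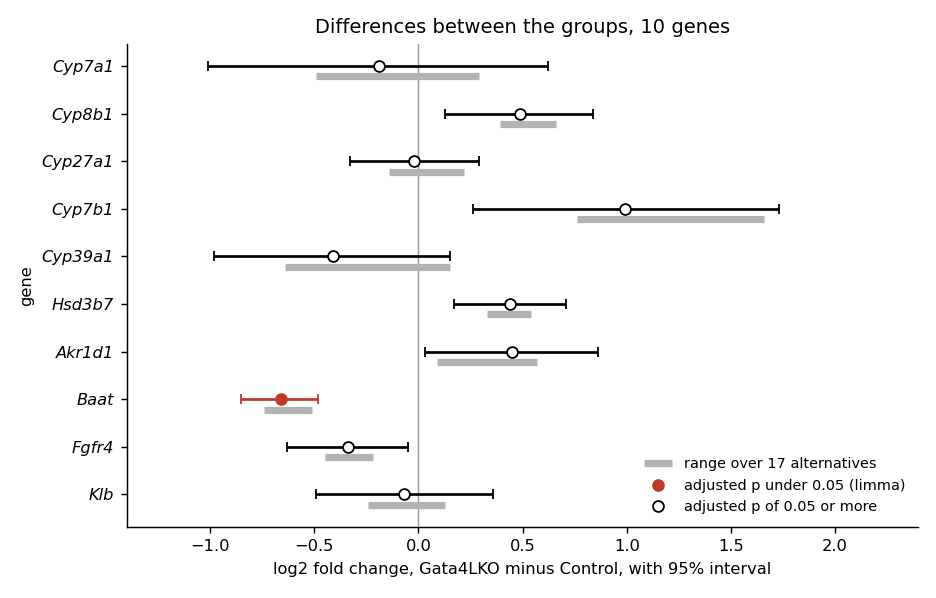
Log2 fold changes of the 10 genes (horizontal axis, Gata4LKO minus Control; points with limma 95% intervals), with grey bars for the range over 17 alternative settings. The filled point is Baat at -0.66, and the widest interval is that of Cyp7a1, from -1.01 to 0.62.

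The receptor pair showed no called difference. Fgfr4, the receptor kinase (chromosome 13, 55152640 to 55168759, plus strand), had 1339, 1564 and 1133 normalised reads in Gata4LKO, against 1584, 1634 and 1845 in Control. The Gata4LKO libraries were all lower, though replicate 2 came within a small margin of Control replicate 1, and the log2 fold change was -0.34 (SE 0.12, 95% interval -0.63 to -0.05, limma adjusted p = 0.17). Klb, the co-receptor (chromosome 5, 65348314 to 65384007, plus strand), had 1580, 1152 and 1946 normalised reads in Gata4LKO, against 1473, 1787 and 1548 in Control. Gata4LKO replicates 2 and 3 were the lowest and the highest of all 6, and the log2 fold change was -0.07 with a 95% interval of -0.49 to 0.36 (limma adjusted p = 0.87). Of 18 tested genes of FGF receptor signalling, 0 passed in either direction by limma or edgeR, against 2 by DESeq2 and 4 at an unadjusted limma p under 0.05, a share near the 22.4% of all genes, and their median log2 fold change was 0.08. The feedback inhibitors Spry1 and Spry2 averaged 164 and 46 normalised reads in Gata4LKO and 82.8 and 20.9 in Control. Neither passed (limma adjusted p = 0.0826 and 0.158). The more abundant Spry4 went the other way, averaging 493 in Gata4LKO and 687 in Control (limma adjusted p = 0.681). Spred1 and Spred2 differed little, at 734 and 533 in Gata4LKO and 680 and 472 in Control (limma adjusted p = 0.822 and 0.462). For Spry4, Spred1 and Spred2 the groups overlapped. On the log2 scale the kinase Src had a fold change of 0.75 (adjusted p 0.118), and Fgfr3 had -0.42 (adjusted p 0.11). Dusp6, a phosphatase induced by the same signalling, averaged 1273 normalised reads in Gata4LKO and 1141 in Control (log2 fold change 0.41, limma adjusted p = 0.705). Its Control libraries, at 544, 2273 and 604, spanned the Gata4LKO libraries, at 1828, 1156 and 836.

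Set per length of exon, the 10 genes formed an abundant and a scarce set in both groups. In Control the order was Cyp27a1 at 8057 ± 1102 normalised reads per kb, Cyp8b1 at 7047 ± 571, Cyp7a1 at 6869 ± 1817, Baat at 4516 ± 375, Cyp7b1 at 3956 ± 1053 and Akr1d1 at 2660 ± 401 (SD, n = 3 each). The first 3 overlapped in their Control libraries, as did Baat with Cyp7b1 and Cyp7b1 with Akr1d1. Within each Control library, though, Cyp27a1 stood above Cyp8b1. Differences between genes were not tested. Cyp39a1, Fgfr4, Klb and Hsd3b7 followed at 492 ± 126, 476 ± 39.0, 352 ± 36.0 and 153 ± 20.5 per kb, of which Cyp39a1 overlapped with Fgfr4 and with Klb. In Gata4LKO the order began with Cyp8b1 at 9993 ± 1984 per kb, then Cyp7b1 at 8102 ± 2948, Cyp27a1 at 7923 ± 944 and Cyp7a1 at 6333 ± 2775. Akr1d1 at 3669 ± 917 stood above Baat at 2842 ± 66.3 there, and their libraries did not overlap, whereas in Control every Baat library was above every Akr1d1 library. In Gata4LKO the scarce set held Fgfr4 at 380 ± 60.9, Cyp39a1 at 370 ± 103, Klb at 343 ± 87.3 and Hsd3b7 at 206 ± 9.13 per kb. Together the 10 genes took 0.257%, 0.323% and 0.313% of the reads in Gata4LKO, against 0.253%, 0.227% and 0.289% in Control, with overlap between the groups.

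**Figure D3:**
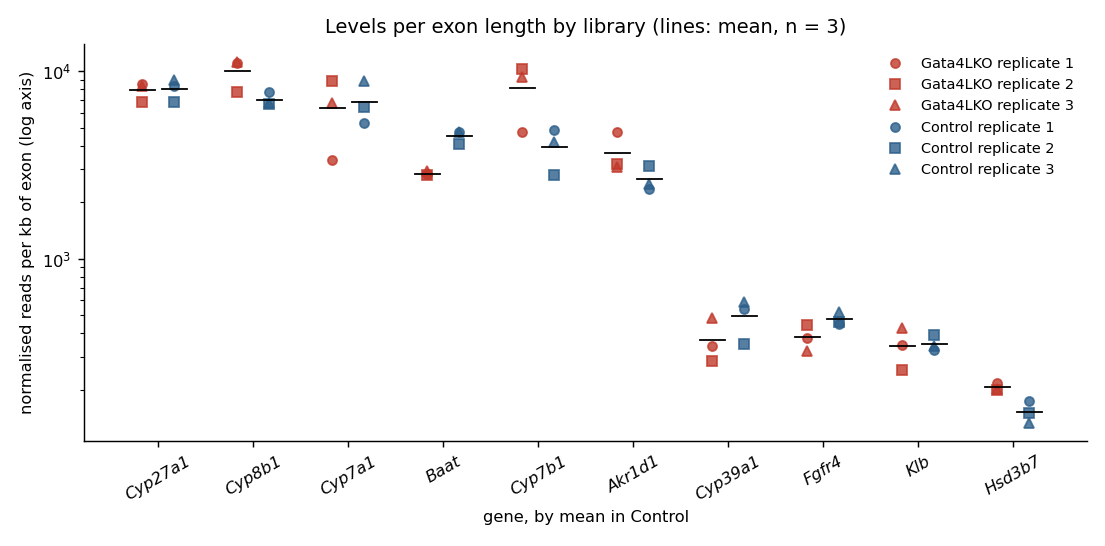
Normalised reads per kb of annotated exon (vertical axis, log scale) of the 10 genes, ordered by the Control mean, with Gata4LKO left of Control; points are libraries and lines are means of 3. Baat and Akr1d1 exchange places between the groups, at 2842 and 3669 per kb in Gata4LKO and 4516 and 2660 per kb in Control.

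Further enzymes of the pathway were read from a list of 19 genes, of which 17 could be tested. Of these, 1 was lower and 0 higher, and their median log2 fold change was 0.05. The gene that fell was Cyp2a12, which in mice rehydroxylates secondary bile acids returning to the liver. Cyp2a12 had 9401, 11417 and 10422 normalised reads in Gata4LKO, against 16857, 18255 and 14681 in Control. The groups were well apart, with a log2 fold change of -0.67 (SE 0.11, limma adjusted p = 0.0312). However, the limma adjusted p was 0.0541 to 0.123 when any library other than Control replicate 2 was left out. Over all 17 alternatives Cyp2a12 was called in 10, with a limma adjusted p of up to 0.153. Its reads may be shared with other Cyp2a copies. Cyp46a1, the cholesterol hydroxylase best known from neurons, had a log2 fold change of -0.87 at 95.2 normalised reads in Gata4LKO and 178 in Control (limma adjusted p = 0.0778). Abcd3, which carries bile acid intermediates into peroxisomes, had a log2 fold change of 0.42 (adjusted p 0.0736), and the peroxisomal thiolase Acaa1a had 0.22 (adjusted p 0.132). Cyp2c70, which makes the muricholic acids of mice, averaged 16208 normalised reads in Gata4LKO and 18299 in Control (log2 fold change -0.21, limma adjusted p = 0.602). Of 9 genes that supply sterol or electrons to the cytochromes, 1 was lower and 0 higher, with a median of -0.15. Stard4, a cytosolic sterol carrier, had 1645, 1415 and 1612 normalised reads in Gata4LKO, against 2318, 2623 and 2790 in Control, and fell by 0.72 (SE 0.10, limma adjusted p = 0.0174). The Stard4 call was lost without Gata4LKO replicate 3 (-0.75, limma adjusted p = 0.0745) and without Control replicate 3 (-0.67, limma adjusted p = 0.0577). Over all 17 alternatives Stard4 was called in 13, with a limma adjusted p of up to 0.184. Its relatives Star and Stard3 had -0.39 and -0.18, and the ferredoxin Fdx1, which passes electrons to CYP27A1, had -0.25, with limma adjusted p of 0.198 to 0.391.

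**Figure D4:**
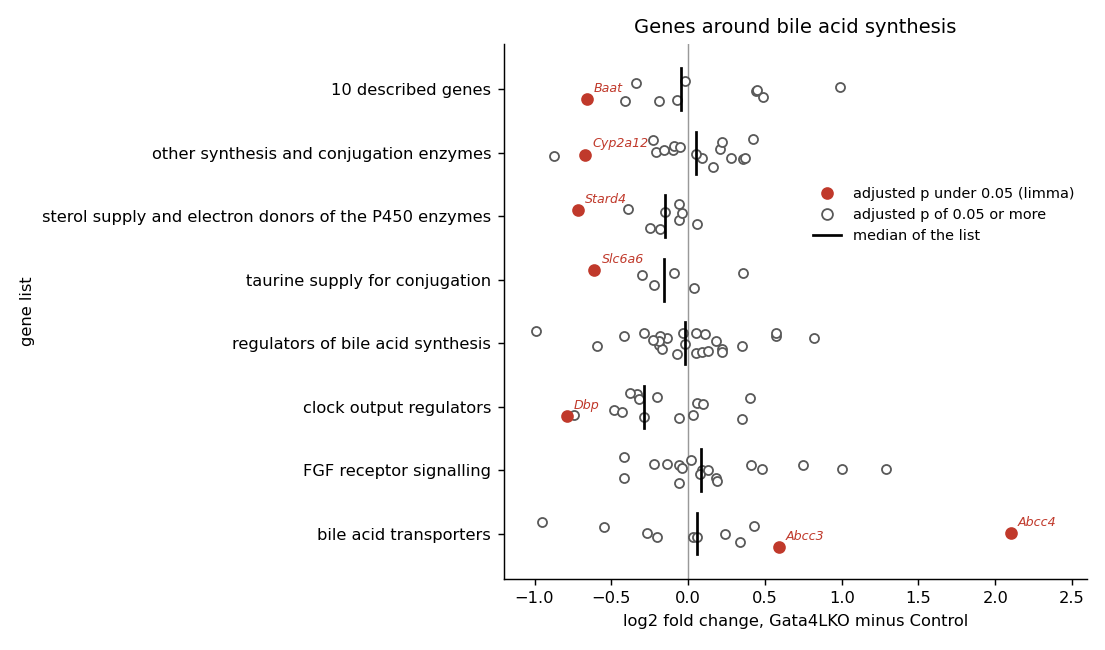
Log2 fold changes (horizontal axis, Gata4LKO minus Control) of the tested genes in 8 lists around bile acid synthesis (rows); filled points passed the limma test, open points did not, and vertical lines are list medians. The filled points are Baat, Cyp2a12, Stard4, Slc6a6 and Dbp on the negative side and Abcc3 and Abcc4 on the positive side.

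Transcripts of the regulators of synthesis did not pass in either direction, with 0 of 25 called by limma or edgeR and a median log2 fold change of -0.02. DESeq2 called 2 of them higher and 1 lower, and 6 had an unadjusted limma p under 0.05, a share near the 22.4% of all genes. Nr1h4, which encodes the bile acid receptor FXR, had 5269, 5389 and 5995 normalised reads in Gata4LKO, against 5753, 6026 and 6608 in Control (log2 fold change -0.14, limma adjusted p = 0.355). Nr0b2, the FXR target SHP that represses Cyp7a1 and Cyp8b1, had 807, 333 and 496 in Gata4LKO, against 722, 613 and 239 in Control. Its highest value was in Gata4LKO replicate 1, the library with the lowest Cyp7a1, and its lowest in Control replicate 3, where Cyp7a1 was highest for that group (log2 fold change 0.11, SE 0.46, limma adjusted p = 0.918). Cyp8b1 did not show this pattern, with 21637 normalised reads in Gata4LKO replicate 1. In Control, both Nr0b2 and Cyp8b1 were highest in replicate 1, at 722 and 15019. Whether SHP had a part in either level was not tested. Nr5a2, which encodes the activator LRH-1, and Hnf4a had -0.19 and -0.18 (limma adjusted p = 0.302 and 0.403). The smallest p among regulators belonged, by log2 fold change and adjusted p, to Cebpa with -0.42 (limma adjusted p = 0.0721), Hdac7 with 0.57 (0.0824), Nr2f1 with 0.82 at 39.9 normalised reads in Gata4LKO and 22 in Control (0.101), and Ppara with 0.35 (0.124). Among 15 clock genes, read because Cyp7a1 is rhythmic and DBP activates it, 1 was lower and 0 higher, with a median of -0.29, while edgeR called 2 and DESeq2 called 1 higher and 4 lower. Dbp had 3929, 5221 and 3825 normalised reads in Gata4LKO, against 7081, 7563 and 7606 in Control, and fell by 0.79 (SE 0.12, limma adjusted p = 0.0285). The Dbp call was lost without Gata4LKO replicate 1 (-0.73, limma adjusted p = 0.0757), Gata4LKO replicate 3 (-0.71, 0.107), Control replicate 1 (-0.83, 0.0605) or Control replicate 3 (-0.77, 0.0828). Over all 17 alternatives Dbp was called in 11, with a limma adjusted p of up to 0.238. Per3, Clock and Nr1d2 had -0.74, 0.35 and -0.32 (limma adjusted p = 0.051, 0.0719 and 0.0824), and Per3 passed in 6 of the 17 alternatives, edgeR among them (adjusted p = 0.0486).

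Of 11 tested bile acid transporters, 2 were higher and 0 lower, with a median log2 fold change of 0.06. These were the basolateral pumps Abcc3 and Abcc4, for which Gata4LKO libraries all lay above Control. Abcc3 had 17363, 14138 and 16001 normalised reads in Gata4LKO, against 11592, 10122 and 9895 in Control (log2 fold change 0.59, limma adjusted p = 0.039). Abcc4 had 591, 247 and 298 in Gata4LKO, against 90.5, 88.3 and 67.3 in Control (log2 fold change 2.10, limma adjusted p = 0.028). Without Control replicate 3 the log2 fold changes were 0.54 and 1.96 (adjusted p 0.11 and 0.0762), without Control replicate 1 they were 0.66 and 2.18 (0.0537 and 0.0578), and without Gata4LKO replicate 3 they were 0.58 and 2.22 (0.145 and 0.0828). Abcc3 also missed the threshold without Gata4LKO replicate 1 (0.52, 0.0895) and without Control replicate 2 (0.56, 0.0515). Over all 17 alternatives Abcc3 was called in 10 and Abcc4 in 12, with limma adjusted p of up to 0.299 and 0.258. The apical sodium-dependent carrier Slc10a2 had 1232, 968 and 641 normalised reads in Gata4LKO, against 1526, 2089 and 1715 in Control, a log2 fold change of -0.95 that did not pass (limma adjusted p = 0.0756). Abcb4, the phospholipid floppase of the canalicular membrane, had a log2 fold change of 0.43 (adjusted p 0.0761).

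Genes whose levels followed those of Baat most closely were sought among 10862 named genes with a mean of at least 50. Over the 6 libraries, Pearson's r of log2 values with Baat was 0.996 for Dsp, 0.994 for Ccdc57, 0.993 for Hook2, 0.992 for Soat2 and 0.990 for Hace1, with Spearman's rho of 0.83, 0.83, 0.89, 0.83 and 0.94. The group difference enters these values, and 116 genes had an r above 0.95, so they are a description of 6 libraries only. Dsp, which encodes the desmosomal protein desmoplakin, averaged 2681 normalised reads in Gata4LKO and 3815 in Control. Soat2, the enzyme that esterifies cholesterol in hepatocytes, averaged 455 in Gata4LKO and 1262 in Control.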

How the data were processed

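Liver libraries from 3 Gata4LKO and 3 Control mice were compared. Stranded libraries followed mRNA capture, per the labels' protocols. FastQC, STAR 2.6.0c, DESeq2 and mm10 are named in the submitters' processing notes, while the counter and its strand setting were not given in the sources used here. Per gene, the authors deposited a normalised count (signal), and 100% of its values were whole multiples of 1 step per library within 0.1, so reads were recovered. The authors' deposited table of log2 fold changes and p-values was used only where named.

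limma 3.58.1 (R 4.3.3) was run on log2(value + 1) with a variance trend for genes with a mean of at least 10, two-sided, with Benjamini-Hochberg adjustment at 0.05 over all genes tested. This scale understates changes of low genes. Alternatives were pseudocounts of 0.5 and 5, other filters and scalings, no trend, edgeR 4.0.16 and DESeq2 1.42.0 on recovered reads, a marker covariate, and leaving out each library. Replicates were numbered in accession order and pair nothing; every pair of libraries differed beyond counting error (chi-square per degree of freedom of 31.2 or more). The labels give each library its own animal number. Exon lengths and positions are from GENCODE M21 (mm10). Genes named were all 10, Gata4, Nr1h4, Nr0b2, Nr5a2, Hnf4a, the called and up to 4 smallest-p genes of each list, and 5 genes like Baat. Others given (Slc27a5, Cyp2c70, Dusp6, Spry4, Spred1, Spred2 and marker genes) were chosen after their values were seen. The members and lists were chosen with earlier results of these data known. The fits were tested on simulated data.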

Additional observations from a re-analysis of the deposited data

How the results depend on the processing

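Across the 17 alternatives, Baat was negative in all (-0.74 to -0.51) and called in 13. Of the 10 genes, 1 was called; 0 were called without the variance trend and with the marker score, 4 by DESeq2 on recovered reads, and 0 to 2 when a library was left out. The count over all genes, 296, was 458 with equal library sums, 25 without the trend, 1360 by DESeq2, 7 with the marker score, and 27 to 794 when a library was left out (27 without Gata4LKO replicate 3, 58 without Control replicate 3, 140 to 148 without Gata4LKO replicate 2, Control replicate 1 or Gata4LKO replicate 1, 794 without Control replicate 2). Signs turned for 6 genes. Cyp27a1 was 0.03 with equal sums, 0.00 with quantile normalisation and 0.22 with the marker score, and Csad was -0.22 by both edgeR and DESeq2. With the marker score Cyp7a1 was 0.29, Cyp39a1 0.15 and Nr0b2 -0.86. Leaving out a library gave -0.49 to 0.21 for Cyp7a1, -0.14 to 0.08 for Cyp27a1, -0.24 to 0.13 for Klb, -0.38 to 0.42 for Nr0b2 and -0.54 to 1.18 for Csad. The cause of these changes was not tested. The ratio of Cyp7b1 to Cyp7a1 kept a positive difference in every setting run, 0.99 to 1.53. Scaling factors do not enter this ratio, and its groups did not overlap. Settings that rescale or leave out a library therefore could not turn its sign, and they are no check of it. With 3 mice a group, intervals as wide as that of Cyp7a1 leave changes of either sign possible.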
